A study of Mus musculus with 2 samples.

Results

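The cells described here were gamma delta and innate-like T cells of the mouse spleen. They were chosen by their own transcript counts: a barcode needed at least 200 genes with a count, at most 10% mitochondrial counts and at least 2 counts over the CD3 genes Cd3d, Cd3e and Cd3g. It also needed at most 1 count over the B cell genes Cd79a, Cd79b and Ms4a1, and none of Cd4, Cd8b1 or Foxp3. The last condition was at least 2 counts over Trdc, Tcrg-C1, Cd160 and Cxcr6. A count is 1 unique molecular identifier (UMI), which stands for 1 captured transcript. The rule found 56 of 6588 barcodes that passed the first filters, which is 0.85% (95% exact interval 0.643 to 1.10%). They are called members below. These were 5.42% (4.12 to 6.98%) of 1034 T cells. All intervals in the text cover counting error only.

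The study profiled spleen cells of mice modelling Wiskott-Aldrich syndrome, an immune deficiency caused by loss of the actin regulator WASP, which the gene Was encodes. Single cells were captured in droplets and their transcripts read from the 3′ end. The labels give 2 samples, 1 titled as WAS and 1 as WT, both of spleen from mice 6 to 8 weeks old, and the protocol names WAS-KO and WT mice. Both labels carry the same disease-model entry, and they name neither the strain nor the knockout allele. The deposited table holds 7524 barcodes of both samples under 1 suffix. Barcodes could not be assigned to a sample, so the 56 cells are a mixture of unknown proportions, and no comparison of WAS-KO with WT was made. Being 1 pooled sample, the table allows no test between conditions. Every ratio below compares sets of cells within it.

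Gamma delta T cells carry a receptor built from a gamma and a delta chain in place of the alpha and beta chains of CD4 and CD8 T cells. Many gamma delta cells leave the thymus already committed to making interferon gamma or interleukin 17, and they respond to cytokines as well as to antigen. Natural killer T cells and other innate-like T cells use alpha-beta receptors but share this readiness and often carry receptors of natural killer (NK) cells. In the spleen these cells are a small part of the T cells.

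The median member held 6657.5 UMIs (lowest 870, highest 13785) and 2372 genes, with a median mitochondrial share of 4.90%. All 56 members together held 389774 UMIs. For comparison, 495 CD4 T cells had a median of 6477 UMIs, 287 CD8 T cells 8284, 265 NK cells 4448 and 3075 B cells 5237. CD4 and CD8 T cells met the same CD3 and B cell conditions and carried Cd4 without Cd8b1 or the reverse, and the CD4 set kept cells with Foxp3. NK cells had no CD3 gene count and at least 2 counts of Ncr1 and Klrb1c. A doublet caller marked 1 of the 56 members.

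The 4 genes of the rule let in different cells. Trdc encodes the constant region of the delta chain (chr14:54142851-54148868, plus strand) and Tcrg-C1 a constant region of the gamma chain (chr13:19214103-19217024, plus strand). Together they reached 2 counts in 29 members, of which 11 had neither Cd160 nor Cxcr6. Cd160 encodes a surface receptor of cytotoxic lymphocytes (chr3:96798763-96829351, minus strand), and Cxcr6 a chemokine receptor of tissue-homing lymphocytes (chr9:123806475-123811760, plus strand). This pair reached 2 counts in 39 members, and 23 of these had neither Trdc nor Tcrg-C1. Both pairs reached 2 counts in 13 members. At the threshold, 10 members had a sum of exactly 2, and 19 double-negative T cells with a sum of 1 lay just outside. The summed level of Trac, the alpha-chain constant gene, was 366 CPM (a gene's UMIs per 1000000 UMIs of the set) just inside and 599 CPM just outside. Xcl1 stood at 111.5 and 109.6 CPM and Ccl5 at 15335 and 10970 CPM on the 2 sides.

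**Figure D1:**
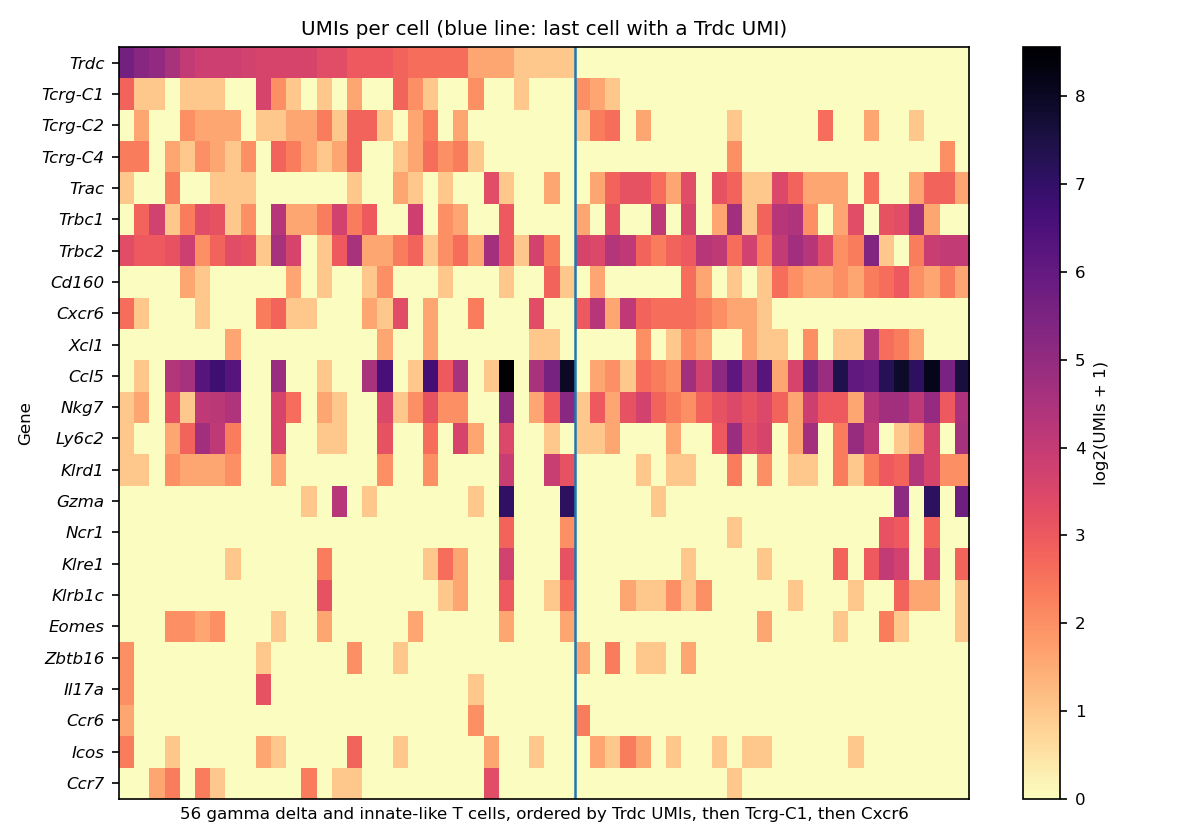
UMIs of 24 genes (rows) in each of the 56 members (columns), coloured by log2(UMIs + 1), with cells ordered by Trdc and a blue line after the last of the 30 with a Trdc UMI. Cells left of the line carried most gamma constant UMIs, Trac lay mainly to the right, and Gzma was dark in a few cells only.

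The gamma delta name held for some of the members only. Trdc was detected in 30 of 56 members, 26 had none, and 29 of the 30 also carried Trac, Trbc1 or Trbc2. Only 1 member had delta-chain without alpha-beta constant counts, and 26 had alpha-beta constant counts alone. That 1 member held a single Trdc UMI and none of Tcrg-C1, Tcrg-C2 or Tcrg-C4. It had 3 Ncr1 and 138 Gzma UMIs, so its class does not mark it as a gamma delta T cell. Detected Trdc ranged from 1 to 49 UMIs with a median of 8. It reached at least 5 in 23 members and was 1 or 2 in the other 7, with no member at 3 or 4. Over all members Trdc stood at 834 CPM, against 4.36 in CD4 T cells, 6.11 in CD8 T cells and 70.3 in NK cells. The rule used Trdc, so these levels are a description. In NK cells, which lacked CD3 counts, 92 Trdc UMIs lay in 67 of 265 cells.

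After each cell was thinned to 1000 UMIs, Trdc was seen in 43.6% of 55 members (30.3 to 57.7%, unthinned 53.6%). The same share was 0% of 495 CD4 T cells (unthinned 2.02%), 0.697% of 287 CD8 T cells (2.09%) and 6.44% of 264 NK cells (25.3%). B cells, which should lack the gene, gave 0.0656% of 3048 cells (0.748%). Thinning left out 1 member, 1 NK cell and 27 B cells with fewer than 1000 UMIs.

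The rule did not use Tcrg-C2 and Tcrg-C4, the other gamma constant genes. The summed gamma constant genes, which include Tcrg-C1 of the rule, gave 176 UMIs in 34 members (452 CPM). They were counted in 25 of the 30 members with Trdc and 9 of the 26 without. In CD4 T cells the sum was 9.02 CPM, in CD8 T cells 4.08, in NK cells 9.93 and in B cells 0.656. Since the rule read Tcrg-C1, this contrast is in part a description. Before thinning, Tcrg-C2 was seen in 44.6% of members, 1.21% of CD4, 1.39% of CD8, 0% of NK and 0.13% of B cells. For Tcrg-C4 the shares were 39.3%, 0.808%, 0.348%, 1.51% and 0.0976%. Tcrg-C1 had 49 UMIs in 19 members, Tcrg-C2 had 64 in 25 and Tcrg-C4 had 63 in 22. Reads may be shared between related gamma constant genes, which was not tested here. The split among the 3 may therefore be uncertain, while the sum is less affected.

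Trac and Trbc2 were lower than in CD4 and CD8 T cells but far from absent. Trac held 0 to 10 UMIs per member with a median of 1, and it was seen in 33 of 56. Its summed level was 318 CPM, against 825 in CD4 and 644 in CD8 T cells. Trbc1 ranged from 0 to 25 UMIs (median 2) and Trbc2 from 0 to 39 (median 7), and Trbc2 was seen in 53 of 56 members. Trbc2 stood at 1293 CPM in members, 1785 in CD4 T cells and 1606 in CD8 T cells. Trbc1 stood at 731 CPM, below the 958 of CD4 T cells (log2 ratio -0.39, interval -0.57 to -0.21), and its ratio to the 750 of CD8 T cells had an interval from -0.22 to 0.14. Beta constant transcripts occurred without CD3 as well: Trbc1 was seen in 75.5% of NK cells. A Trbc1 or Trbc2 count alone therefore did not separate alpha-beta cells from the rest.

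**Figure D2:**
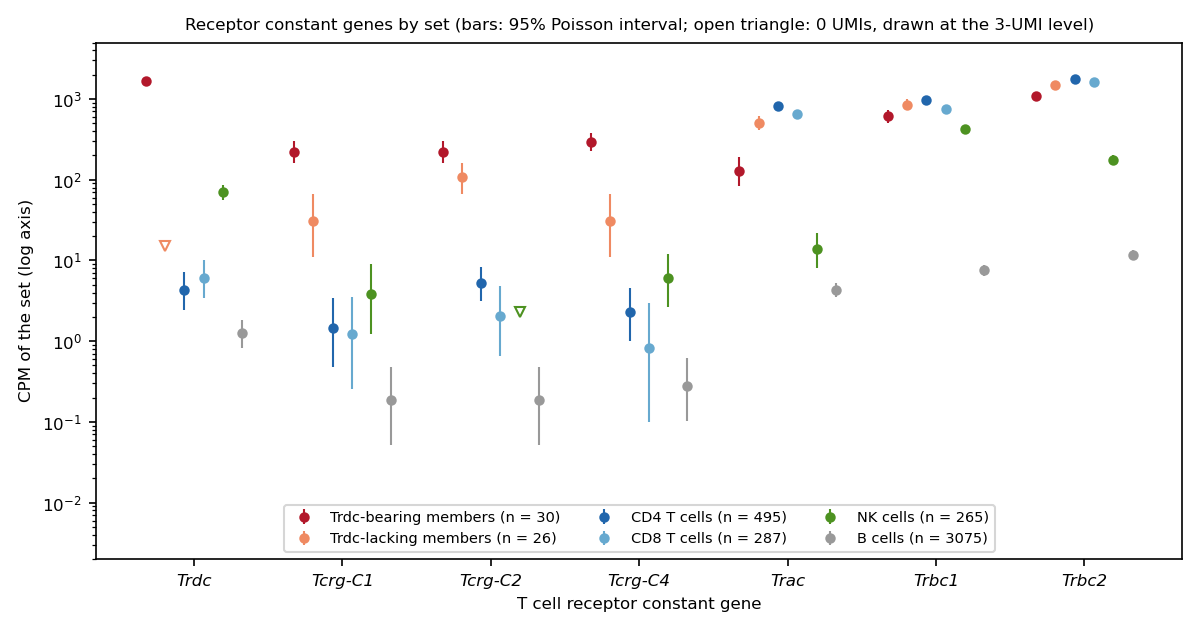
CPM (log axis) of 7 receptor constant genes in the 30 members with Trdc, the 26 without and 4 comparison sets, with points for the summed level, bars for the 95% Poisson interval and open triangles for 0 UMIs drawn at the level of 3 UMIs. Members with Trdc had the highest level of every gamma constant gene and, at 130 CPM, less Trac than members without, CD4 or CD8 T cells.

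Variable genes add to this picture, although a 3′ assay reads them thinly. A gamma variable gene was counted in 25 of 56 members (44.6%), in 3.16% of other double-negative T cells, 0.606% of CD4 and 2.44% of CD8 T cells, and in 0 of 265 NK cells and 0 of 3075 B cells. It was found in 16 of the 30 members with Trdc and 9 of the 26 without. Trgv2 led with 40 UMIs in 20 members, followed by Tcrg-V1 with 15 UMIs in 9 and Tcrg-V4 with 5 in 3. Conversely, an alpha variable gene not shared with the delta locus was counted in 2 of the 30 members with Trdc and 9 of the 26 without. Trav11, used by invariant natural killer T cells, and Trav1, used by mucosal-associated invariant T cells, both had 0 UMIs, so neither type could be identified from its receptor. The 20 Trdv4 UMIs in 3 members have less meaning, since NK cells held 54.

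Receptors of NK cells were higher in the members than in CD4 T cells across nearly the whole list. Against CD4 T cells, ratios were formed for genes with at least 20 UMIs over both sets, and 9.28% of 8801 genes were at least 2-fold higher in members and 6.27% at least 2-fold lower. The median over all genes was a log2 ratio of 0.15. By total UMIs this was 817 genes higher and 552 lower, and scaling by the median ratio, which removes that shift, gave 582 and 696. Of 29 NK receptor genes in the table, 22 had enough UMIs, 21 were at least 2-fold higher and none lower, with a median log2 ratio of 4.47. As 8 of the 22 reached 20 UMIs through the members themselves, those had to be high. Of 10 genes with at least 20 UMIs in each set, 9 were higher.

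The lectin-like receptors led the individual genes. Klrc2 encodes the activating receptor NKG2C, which pairs with the CD94 protein encoded by Klrd1. It had 91 UMIs in 19 members, or 234 CPM, against 6.11 CPM in CD4 T cells (log2 ratio 5.26, interval 4.56 to 6.02). Klrd1 ranged from 0 to 19 UMIs (median 1) and was 4.01 log2 units higher. Klrk1, encoding the activating receptor NKG2D, was 4.48 higher with counts in 23 members, and Klre1, an NK lectin, 5.13 higher with counts in 15. Tyrobp, the adaptor DAP12 that signals for several such receptors, ranged from 0 to 43 UMIs and was 3.42 higher. Klrd1, with counts in 29 members, was the most widely detected of these lectins.

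Genes that were named as high against both CD4 and CD8 T cells were Klrc2, Klre1, Cd7, Tyrobp, Anxa2 and Ccr2. Their promoters are shown since these genes were named in both comparisons, which does not mean that they were high in the same members. RefSeq (GRCm38.p6) held an entry for 4 of the 6, with none for Cd7 and Tyrobp. Each line gives the 250 bases before the RefSeq gene start, 5′ to 3′ on the gene's strand. The GENCODE annotation, used for the other coordinates, places the starts elsewhere, and all 4 windows overlap the genes as it draws them. It starts Klre1 at 129577905 and Klrc2 at 129660689, so by GENCODE the motif matches below lie inside these 2 genes. Capitals mark the RUNX core TGTGGT, or ACCACA where it lies on the other strand. Runx3 is a RUNX factor of cytotoxic lymphocytes.
Klrc2 (chr6:129660597-129660846, minus strand): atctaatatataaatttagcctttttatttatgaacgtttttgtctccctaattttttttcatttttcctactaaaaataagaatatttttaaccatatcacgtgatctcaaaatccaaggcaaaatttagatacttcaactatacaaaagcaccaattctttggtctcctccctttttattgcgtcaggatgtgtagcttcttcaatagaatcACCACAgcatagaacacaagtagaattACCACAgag
Klre1 (chr6:129577963-129578212, plus strand): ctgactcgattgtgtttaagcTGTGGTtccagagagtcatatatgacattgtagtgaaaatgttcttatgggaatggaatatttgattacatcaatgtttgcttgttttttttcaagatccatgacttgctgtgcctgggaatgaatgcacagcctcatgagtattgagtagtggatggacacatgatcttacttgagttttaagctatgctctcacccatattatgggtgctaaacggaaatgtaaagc
Anxa2 (chr9:69453433-69453682, plus strand): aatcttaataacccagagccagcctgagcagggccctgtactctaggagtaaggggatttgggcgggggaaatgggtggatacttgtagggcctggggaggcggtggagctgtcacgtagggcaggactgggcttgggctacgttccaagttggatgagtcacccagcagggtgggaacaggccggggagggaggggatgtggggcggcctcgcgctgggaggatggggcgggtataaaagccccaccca
Ccr2 (chr9:124101933-124102182, plus strand): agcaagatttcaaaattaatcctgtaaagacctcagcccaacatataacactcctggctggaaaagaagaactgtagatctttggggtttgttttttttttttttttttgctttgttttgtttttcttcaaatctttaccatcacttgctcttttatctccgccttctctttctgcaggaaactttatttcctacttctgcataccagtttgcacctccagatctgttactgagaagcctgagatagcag
Klrc2 held 2 RUNX cores on the other strand, starting 36 and 9 bases before the RefSeq start, and Klre1 held 1 on its own strand at 229 bases before. The search on both strands found none in Anxa2 or Ccr2, and no T-box core GGTGTG in any of the 4. Of 27025 RefSeq promoters of this length, 14.2% held TGTGGT and 16.2% held GGTGTG. The 2 motifs share letters but no match overlapped another here. A match is a description of letters and not a binding site.

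Cytotoxic and chemokine genes were also high, but unevenly across members. Ccl5, a chemokine stored by memory and effector lymphocytes, ranged from 0 to 377 UMIs (median 22) and was detected in 44 of 56 members. Its level was 7574 CPM, against 452 in CD4 T cells (log2 ratio 4.07, 3.98 to 4.16). Nkg7, a cytotoxic granule protein, ranged from 0 to 36 UMIs (median 6), was detected in 47 members and was 3.27 higher. Granzyme A was much narrower: Gzma ranged from 0 to 140 UMIs with a median of 0, and its 517 UMIs lay in 10 members. Gzma was 4.80 above CD4 T cells, but when the rule was applied to thinned cells, which left 22 members, it stood at -2.78. The cytotoxic list held 10 of 14 genes at least 2-fold higher and none lower (median 1.72), including Prf1, encoding perforin, at 2.22 and Gzmb at 2.43. Of 11 genes with at least 20 UMIs in each set, 9 were higher.

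Surface and migration genes followed the same split between broad and narrow genes. Cd7, a costimulatory protein of T and NK cells, ranged from 0 to 37 UMIs (median 2.5), was seen in 40 members and was 4.36 log2 units above CD4 T cells. After thinning, Cd7 was seen in 40% of members, 2.42% of CD4, 9.76% of CD8, 21.2% of NK and 0.492% of B cells, and the unthinned shares were 71.4%, 13.5%, 44.3%, 56.6% and 2.05%. Ly6c2, a Ly6 family surface protein of memory T cells, had a median of 1 UMI, a highest count of 29 and a log2 ratio of 2.95. Anxa2, a membrane-binding protein, was 3.13 higher in 26 members, and Ccr2, a receptor for inflammatory chemokines, 2.97 higher in 19. Homing genes as a list had 13 of 27 higher and 3 lower, with a median of 0.83. Without genes of the rule, 12 of 26 were higher and 3 lower, with a median of 0.78.

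**Figure D3:**
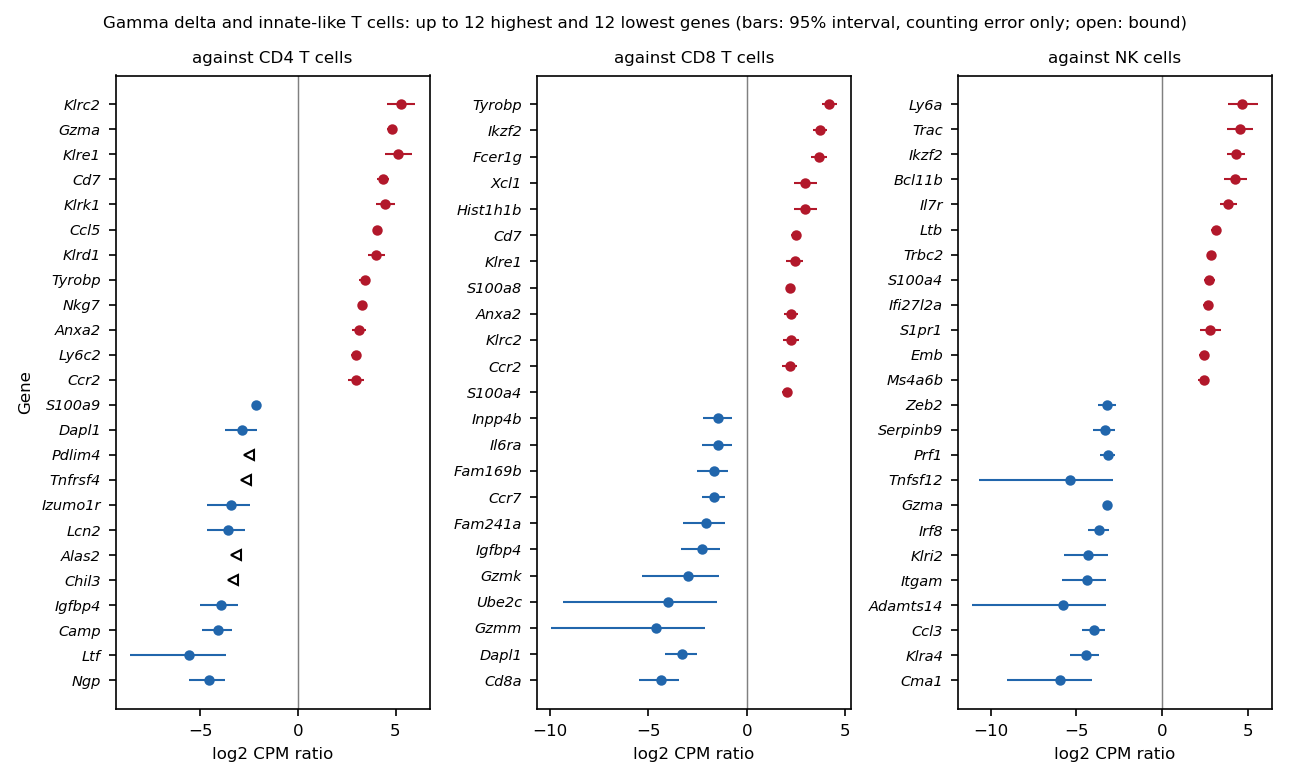
Log2 CPM ratio (x axis) of up to 12 highest and 12 lowest genes by the stated rule against CD4 T, CD8 T and NK cells, with bars for the 95% interval from counting error and open triangles for bounds where the members had 0 UMIs. NK lectin genes such as Klrc2 and Klre1 were high against both T cell sets, and Klra4 and Prf1 were low against NK cells.

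The 12 genes named as lower than in CD4 T cells included naive and CD4 helper genes. Igfbp4 stood at 25.7 against 397 CPM (log2 ratio -3.95), Dapl1 at -2.86, and Izumo1r, the folate receptor FR4 of regulatory and tolerant T cells, at -3.44. Tnfrsf4, encoding OX40, and Pdlim4 had 0 UMIs, and at a floor of 3 counts over the set their log2 ratios were at most -2.68 and -2.52. Of 15 naive T cell genes, 6 were lower and 1 higher (median -0.62), among them Ccr7, the lymph node homing receptor, at -1.78. Foxp3-bearing cells were kept in the CD4 set and barred from the members, which touches Izumo1r and Tnfrsf4.

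Neutrophil and red cell genes were also among the 12: Ngp (-4.57), Ltf (-5.56), Camp (-4.08), Lcn2 (-3.60), S100a9 (-2.14), Chil3 and Alas2, the last 2 with 0 UMIs in members and bounds of -3.32 and -3.15. Neutrophil markers summed to 1393 CPM in members, of which 73.8% lay in 1 cell, and to 6863 CPM in CD4 T cells. Erythroid markers summed to 1380 and 20835 CPM. Without cells that held at least 2 UMIs of Ngp, Camp or Ltf, S100a9 stood at 2.01 and Lcn2 at 1.57, the opposite direction. Without the barcodes that the doublet caller marked, S100a9 stood at -4.01. The direction of S100a9 thus depended on which cells were left out. The part of such transcripts in these ratios was otherwise not tested.

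CD8 T cells were closer to the members in cytotoxic genes. Against them, 9.12% of 8216 genes were at least 2-fold higher and 4.24% lower, with a median over all genes of 0.20. These were 749 and 348 genes, and scaling by the median ratio gave 467 and 531. The cytotoxic list had 2 of 15 genes higher and 2 lower (median 0.33), with Nkg7 at 0.21 and Ccl5 at 0.80. Gzmm had 1 UMI in members (-4.61, interval -9.93 to -2.11) and Gzmk had 3 (7.70 against 61.5 CPM), while Gzma was 1.86 higher. That direction rested on the 6 members with an Ncr1 count: without them Gzma stood at 227 CPM against 365 in CD8 T cells (-0.68). Ly6c2 was on the lower side at -0.47. NK receptors remained high, with 18 of 21 genes past 2-fold and a median of 3.38, of which 7 had enough UMIs only through the members. With at least 20 UMIs in each set, 8 of 11 were higher.

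Ikzf2, encoding the transcription factor Helios, was among the highest genes against CD8 T cells and, with Cd7, the most widely detected of the 12 named as higher. It ranged from 0 to 22 UMIs with a median of 2 and was detected in 40 of 56 members. Its level of 575 CPM compared with 44.0 in CD8 T cells (log2 ratio 3.71, 3.37 to 4.05), and with 29.0 in NK cells (4.31). Against CD4 T cells it was 1.77 higher. After thinning, Ikzf2 was seen in 34.5% of members (unthinned 71.4%), 4.88% of CD8 T cells (13.6%), 2.27% of NK cells (9.43%) and 0.197% of B cells (0.878%). Tyrobp (4.19), Fcer1g, an Fc receptor signalling chain (3.67), and Xcl1 (2.97) followed among the highest genes against CD8 T cells. S100a8, a neutrophil gene, was also high (2.22), and without the 1 member marked as a doublet it stood at 0.07.

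Transcription factors were more often higher than lower in the members. Against CD4 T cells, 13 of 28 factors were at least 2-fold higher and 2 lower, and against CD8 T cells 13 of 23 were higher and none lower. Zbtb16, encoding PLZF, the factor of innate-like T cells, had 18 UMIs in 9 members, never more than 4 per cell, and was 3.50 above CD4 T cells. Tbx21, encoding T-bet, was 3.54 and 1.51 higher, Eomes 2.87 higher and -0.20, and Id2, a general regulator of innate lymphocytes, 1.89 and 1.45 higher than CD4 and CD8 T cells. Maf was 3.56 above CD8 T cells. Lef1 (-1.26) and Tox (-1.11) were below CD4 T cells.

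Among cytokines, Xcl1, a chemokine that draws cross-presenting dendritic cells (chr1:164931644-164935527, minus strand), was given as a marker of these cells but was not in the rule. It ranged from 0 to 19 UMIs with a median of 0 and was seen in 19 of 56 members. Its level was 144 CPM, against 6.69 in CD4, 18.3 in CD8 and 186 in NK cells. After thinning it was seen in 9.09% of members (3.02 to 20%), 0.404% of CD4, 1.74% of CD8, 8.71% of NK and 0.197% of B cells. The unthinned shares were 33.9%, 1.01%, 8.71%, 23% and 0.78%. Its ratio to NK cells of -0.37 had an interval that reached from -0.82 to 0.05, so no difference from NK cells was detectable at this depth. Of 12 cytokine genes measured against CD4 T cells, 7 were higher and 1 lower.

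Cytokine receptors differed less. Il2rb, the shared interleukin 2 and 15 receptor chain, ranged from 0 to 19 UMIs (median 4) and was 2.49 above CD4 and 1.59 above CD8 T cells. Il7r, which supports resting T cells, ranged from 0 to 21 UMIs (median 1.5) and was within the counting error of both, at 0.06 and -0.15. Against NK cells Il7r was 3.87 higher. Il18r1 and Il18rap were 2.11 and 2.14 above CD4 T cells. The list as a whole had 5 of 19 genes higher and 1 lower against CD4 T cells (median 0.10), which is near the median of 0.15 over all genes.

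Against NK cells the NK receptor and cytotoxic lists were lower in the members. Of 7476 genes, 5.83% were at least 2-fold higher in members and 9.03% lower, and the median over all genes was -0.07. NK receptors outside the rule had 21 of 25 genes lower and 2 higher (median -2.01), and 10 of 15 cytotoxic genes were lower with none higher. Gzma stood at 1326 against 12246 CPM (-3.21), Prf1 at 126 against 1131 CPM (-3.17), and Cma1, the mast cell chymase gene, at -5.97 with 2 UMIs. Zeb2, a factor of terminal NK and effector cells, was at -3.19. T cell genes stood on the other side: Bcl11b, a factor of T cell commitment, was 4.27 higher with counts in 43 members, Ltb 3.13 higher with counts in 52, and Ly6a 4.67 higher. Trac and Trbc2 were 4.53 and 2.88 higher than in the NK set, which was chosen for having no CD3 counts.

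**Figure D4:**
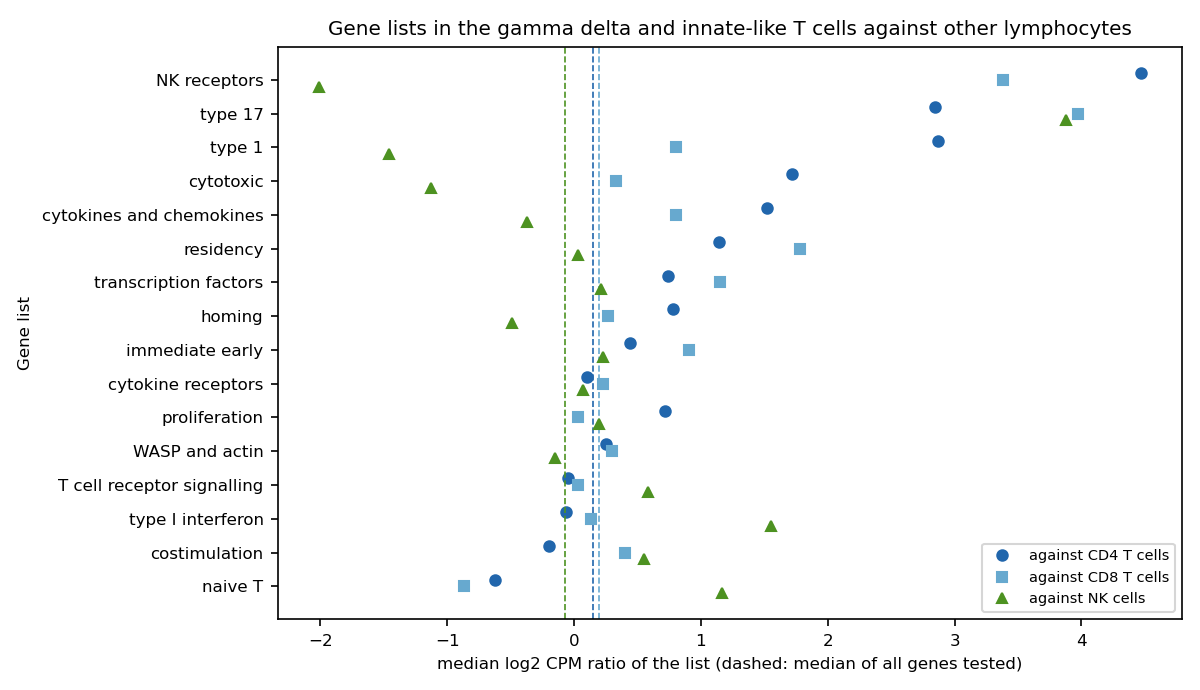
Median log2 CPM ratio (x axis) of 16 gene lists without genes of the rules, against CD4 T cells (circles), CD8 T cells (squares) and NK cells (triangles), with dashed lines for the median of all genes. NK receptors had medians of 4.47 against CD4 T cells and -2.01 against NK cells.

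Small groups of members carried much of several results. The 6 members with an Ncr1 count, the gene of the NK receptor NKp46, held 442 of 517 Gzma UMIs, 35 of 49 Prf1, 174 of 240 Tyrobp, 57 of 91 Klre1, all 44 Klra8 and 1356 of 2952 Ccl5 UMIs. Cd3g was counted in all 6 with 48 UMIs, Cd3d in 3, Cd3e in 2, Trac in 3 and Trdc in 2. Without them Gzma was 2.25 above CD4 T cells where it had been 4.80, Tyrobp 1.80, Klre1 3.95 and Ccl5 3.42, and the NK receptor median was 3.11. Klrc2 (4.94), Klrd1 (3.54), Nkg7 (2.89) and Cd7 (4.06) moved less. Against CD8 T cells, the remaining 50 members had an NK receptor median of 1.92, a cytotoxic median of -0.07, Tyrobp at 2.56, Fcer1g at 2.72 and Klre1 at 1.25. In the 22 members of the thinned rule Klre1 was at -0.43 against CD8 T cells. Hist1h1b, a histone gene with 57 UMIs in 5 members, turned from 2.96 to -1.63. Whether these 6 barcodes are T cells with NK receptors or NK cells with some CD3 transcripts was not tested.

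Interleukin 17 genes were held by another 6 members, picked after their values were seen for having at least 2 of 8 type 17 genes. They held all 12 Il17a UMIs, all 9 of Ccr6, all 12 of Il1r1, 35 of 43 of Cd163l1, and 19 of 20 of Blk, a kinase known from gamma delta cells of this kind. They also held 190 of 216 UMIs of S100a4 and 53 of 102 of Ccr2. Trdc was counted in 5 of them, Cxcr6 in 5 and Zbtb16 in 4, and Cd160, Tbx21, Eomes, Ifng and Ccr7 had 0 UMIs. None of the 6 had an Ncr1 count. Of 11 type 17 genes measured against CD4 T cells, 9 were higher with a median of 2.85, but 2 of the 11 reached 20 UMIs only through the members, and 3 of the 4 with 20 UMIs in each set were higher. Without these 6 members, picked on some of the same genes, the median was -0.63. S100a4 likewise went from 2.05 to -0.81 against CD8 T cells, and Ccr2 from 2.97 to 2.11 against CD4 T cells.

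**Figure D5:**
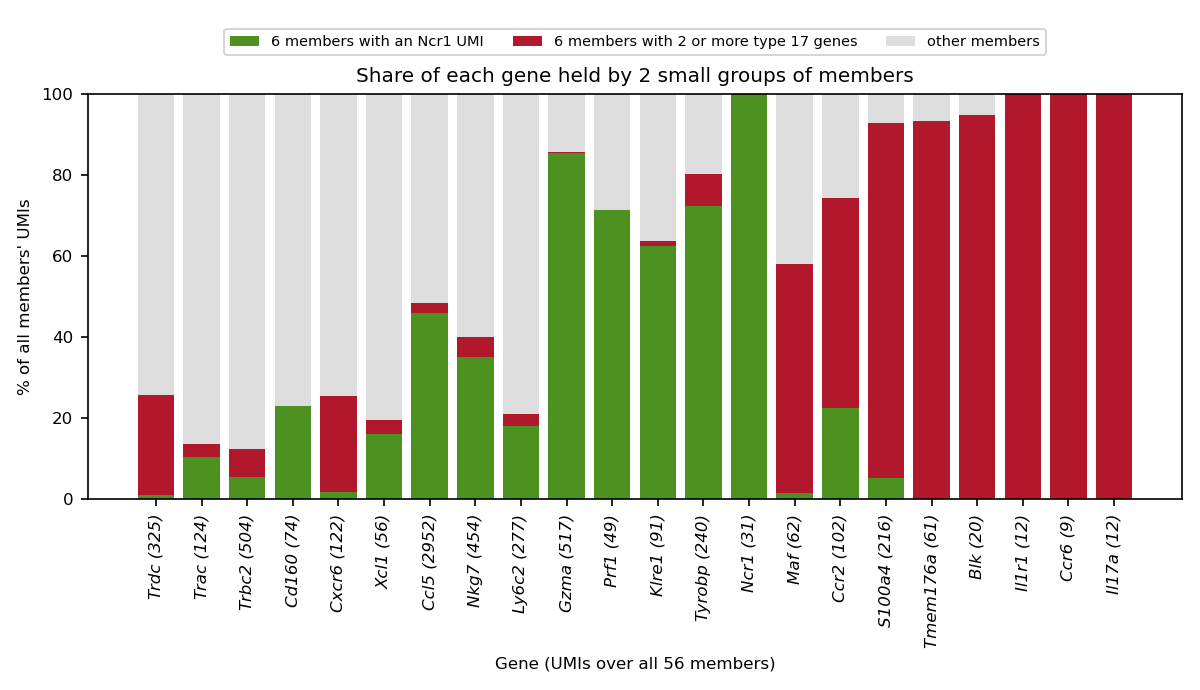
Percent of all members' UMIs of each gene (bars, with the UMI total beside the name) held by the 6 members with Ncr1, the 6 with at least 2 type 17 genes and the other 44. Gzma, Prf1 and Tyrobp lay mostly in the first group and S100a4, Blk and Il17a in the second.

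Ccl5 separated the members along the same line. The 34 members with at least 5 Ccl5 UMIs held 54 of 56 Xcl1 UMIs, 266 of 277 Ly6c2, 125 of 128 Klrd1 and 405 of 454 Nkg7 UMIs. The 22 members below 5 held every Il17a, Ccr6 and Il1r1 UMI, 191 of 216 of S100a4 and 52 of 62 of Maf. The 23 members with at least 5 Trdc UMIs were on both sides: 11 had at least 5 Ccl5 UMIs, with 88 Ly6c2 UMIs and no S100a4, and 12 had fewer, with 3 Ly6c2 UMIs, 137 of S100a4 and no Xcl1. These splits were chosen with the values known and are descriptions.

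Members with neither Trdc nor Tcrg-C1 numbered 23, and 6 of these carried Tcrg-C2 or Tcrg-C4, with 17 UMIs in all. The 15 with at least 2 Cd160 UMIs and neither Trdc nor Tcrg-C1 held 41 of 56 Xcl1 UMIs and 116 of 224 Ikzf2 UMIs. Trac was counted in 11 of them and Ncr1 in 3. The 9 with at least 2 Cxcr6 UMIs and neither gene had Trac in 8, Maf in 7, Klrb1c, the gene of NK1.1, in 6 and Zbtb16 in 3, with Eomes at 0. Cd160 and Cxcr6 groups shared 2 cells. The 9 members with Zbtb16 had Cxcr6 in 8, and Icos, a costimulatory receptor, in 6, and 4 of them carried Trdc. Cd8a was counted in 4 members with 9 UMIs in all.

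The 30 members with Trdc (192728 UMIs) were set against the 26 without (197046 UMIs), a split added after seeing the data. The rule shaped this split, since a cell without Trdc had to reach 2 counts through Tcrg-C1, Cd160 and Cxcr6. Trdc alone could let the others in. Differences in this split, here and below, cannot be told apart from the way the cells were let in. Of 3187 genes, 4.58% were at least 2-fold higher in the members with Trdc and 3.8% lower, and the median was 0.03. Trac was 1.95 log2 units lower (130 against 502 CPM, interval -2.65 to -1.31), and Tcrg-C4, which the rule did not use, 3.28 higher. Xcl1 had 8 UMIs in members with Trdc and 48 in those without (-2.55, -3.84 to -1.46), with highest counts of 2 and 19 per cell. The Ly49 receptors Klra1, Klra6 and Klra9 had 3 UMIs each with Trdc and 32, 27 and 30 without. These related genes can share reads, so their split is uncertain.

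Higher with Trdc were Plac8 (514 against 96.4 CPM, 2.41), Lat, an adaptor of T cell receptor signalling (1.30), the stem cell antigen gene Ly6a (1.31) and Klf6 (1.27). S100a6 (1.67), S100a4 (1.73), Vim (1.07) and Cd74 (1.40) were higher too, but without the 6 members with type 17 genes they stood at 0.81, -0.57, 0.41 and -0.41. Under the thinned rule Ly6a was at -0.28 and Cd74 at -0.47. Ccr7 had 26 UMIs with Trdc and 1 without. Klrk1 was lower (-1.07). S100a8 (-3.26) and S100a9 (-2.60) were lower as well, and without the 1 member that the doublet caller marked they stood at 0.16 and 0.02. Ccl5 (-0.36), Nkg7 (-0.44), Id2 (-0.04), Il2rb (-0.20) and Klrb1c (0.03) did not reach 2-fold.

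Interferon-stimulated genes were higher in the members than in NK cells and near the level of CD4 T cells. Of 15 such genes 12 were at least 2-fold higher than in NK cells and none lower (median 1.55), 3 of them measured only through the members, against 1 higher and 1 lower of 15 relative to CD4 T cells (median -0.06). The genes summed to 774 UMIs in the members, from 0 to 126 per cell with a median of 5.5. The 2 highest members, with 126 and 86, both had Trdc. Their UMIs were a large part of the 499 in members with Trdc, beside 275 in members without. Members with Trdc held 2589 CPM and those without 1396, and the median cell held 8 and 5 UMIs, so the groups overlapped. Of 11 such genes measured in the Trdc split 8 were higher with Trdc and none lower (median 1.32), but 4 of the 11 had enough UMIs only through the members with Trdc. Only 3 genes had at least 20 UMIs on each side, and 2 of these were higher. Ifit3, an antiviral gene induced by interferon, had 38 UMIs with Trdc and 3 without.

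Was itself was at a like level in members and other lymphocytes. It ranged from 0 to 4 UMIs per member and had 31 UMIs in 22 members, or 79.5 CPM (54.0 to 112.9). CD4 T cells stood at 72.4 CPM, CD8 T cells at 62.8 and NK cells at 98.6, and the intervals of the 3 log2 ratios of 0.14, 0.34 and -0.31 all included 0. After thinning, Was was seen in 7.27% of members, 6.26% of CD4, 4.88% of CD8 and 10.2% of NK cells. Which of the 22 cells came from WAS-KO mice could not be told, so this level says nothing about the knockout. Of 26 WASP and actin genes, none was past 2-fold against CD4 or CD8 T cells, with medians of 0.25 and 0.30 beside 0.15 and 0.20 over all genes. Against NK cells 2 of the 26 were lower and none higher (median -0.15), while 9.03% of all genes were lower (median -0.07). These 2 were Nck1 (-1.01) and Nck2 (-1.03), adaptors that link receptors to WASP, both close to the 2-fold limit. Of 24 genes with at least 20 UMIs in each set, 1 was lower.

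The costimulation list had 4 of 22 genes higher than in CD4 T cells and 7 lower (median -0.14). Without genes of the rule, 3 of 21 were higher and 7 lower (median -0.20). Slamf7 was at 3.17 and Cd48 at 1.48, both SLAM family receptors, and the inhibitory receptor gene Ctla4 at -1.65. The residency list had 6 of 11 genes higher and 1 lower (median 1.14), with 1 of 4 higher where both sets had at least 20 UMIs. Of 20 T cell receptor signalling genes only Cd5 (-1.71) and Cd6 (-1.16), inhibitory surface receptors, were past 2-fold, both lower. Of 14 immediate early genes none was past 2-fold against CD4 T cells, while against CD8 T cells 6 of 13 were higher, among them Dusp1 (2.05) and Junb (1.10). Proliferation genes had 412 UMIs, of which 158 lay in 1 member. Mki67 was counted in 4 members with 27 UMIs, and 18 of these were in 1 member with Ncr1.

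Markers of other cells were checked over the members. All 12 NK markers were detected, summing to 2378 CPM against 20261 in NK cells, 121 in CD4 and 623 in CD8 T cells. B cell markers were at 30.8 CPM, against 7424 CPM in B cells, and the rule had barred most of these transcripts. Macrophage and monocyte markers stood at 1126 CPM, against 578 in CD4 and 1141 in CD8 T cells. Ly6c2, described above for memory T cells, is in this list and alone stood at 711 CPM in members and 92.2 in CD4 T cells. Among erythroid markers Alas2 was at 0. The type 2 and type 3 innate lymphoid genes Il1rl1, Areg, Il5, Il13 and Il22 were at 0. A count of 0 over the members allows up to 3 UMIs, so low levels of these genes were not detectable.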

How the data were processed

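Spleen cells were captured in droplets and sequenced from the 3′ end. The mouse reference was mm10, release 3.0.0, per the labels' protocols, and which program mapped the reads is not given in the sources used here. As counts, the authors deposited 1 table of raw UMI counts, 31017 gene symbols by 7524 barcodes of both samples, with 46882070 UMIs in all, of which 44751473 lay in the 6588 barcodes kept. Barcodes were all distinct, and nothing ties them to a sample. Counts were used as deposited. From them, UMIs were summed over the cells of a set and given as CPM, with exact Poisson intervals for a level, exact binomial (Clopper-Pearson) intervals for a share and exact conditional binomial intervals for a ratio, all at 95%. No p-value was computed, since cells are not replicates. Ratios needed 20 UMIs over both sets, "past 2-fold" means a log2 ratio of at least 1 in size, and a count of 0 was replaced by 3 counts over the set, giving a bound.

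Named genes were, per comparison, the 12 highest and 12 lowest by the interval bound nearest to 1 among genes with at least 100 UMIs and 2-fold apart. This ranking skipped the genes of the rules, variable and immunoglobulin genes, haemoglobins, ribosomal proteins, mitochondrial and sex-linked genes, and gene models without a proper name. Genes of fixed lists were named besides. Some items are not reported here. The members and lists were chosen with earlier results of these data known. A planned split into delta-only and alpha-beta-only members left 1 cell on the first side and was replaced by members with and without Trdc. Doublets were kept, and Scrublet marked 137 of 6588 barcodes (2.08%). On simulated counts for the CD8 T cell comparison (8205 genes), drawn with counting error alone, intervals held the true ratio for 96.3% of unchanged genes. The intervals assume the same error, and spread between cells was left out, so the simulation could not test them against such spread. Of 98 genes changed 2-fold, 54.1% came out past 2-fold, as did 95.9% of 98 changed 4-fold and 6.64% of unchanged genes. Gene coordinates are from the GENCODE vM21 annotation of GRCm38 and promoters from RefSeq. Python 3.11.15, numpy 2.4.6, scipy 1.17.1, scanpy 1.11.5 and matplotlib 3.10.9 were used.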

Additional observations from a re-analysis of the deposited data

How the results depend on the processing

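No paired analysis was possible, since the labels give 1 sample per group and no pairs. Barcodes could not be assigned to the 2 samples either. At most 5% mitochondrial UMIs left 29 members, and applying the rule to cells thinned to 1000 UMIs left 22, of which 22.7% had alpha-beta constant genes only and 68.2% both kinds. At least 3 counts of the 4 rule genes left 0% with delta alone. With the thinned rule, 543 genes were higher against CD4 T cells and 79 lower in the Trdc split. Under it Gzma stood at -2.78 and S100a9 at 2.62 against CD4 T cells, Hist1h1b at -2.45, Klre1 at -0.43 and Ube2c at 0.70 against CD8 T cells, and Cd74 at -0.47 and Ly6a at -0.28 in the Trdc split. Cd74 was -1.45 there at 5% mitochondrial UMIs. Without Scrublet doublets, S100a8 was 0.16 and S100a9 0.02 in that split. Scaling by the median ratio removes the shift of all genes (0.15 against CD4, 0.20 against CD8 T cells). It gave 467 genes higher and 531 lower against CD8 T cells, where 749 and 348 had been counted, and 582 and 696 against CD4 T cells, where 817 and 552 had been. Requiring 100 UMIs tests fewer genes and gave 175 higher and 139 lower against CD4 T cells, 126 and 51 against CD8 T cells, 66 and 188 against NK cells and 10 and 4 in the Trdc split. The residency list median against CD4 T cells was then -0.55, where it had been 1.14. Requiring 1 UMI gave 1963, 2065 and 1507 higher genes against CD4, CD8 and NK cells, and 1327 higher and 893 lower in the Trdc split. Without members with Ncr1, Hist1h1b was -1.63 against CD8 T cells. A total of 3 alternatives, among them the Trdc split, were added after seeing the data. Without cells with neutrophil granule genes, Lcn2 was 1.57 and S100a9 2.01 against CD4 T cells, while S100a9 was -4.01 there without Scrublet doublets. Without members with at least 2 type 17 genes, the type 17 median against CD4 T cells was -0.63. S100a4 was then -0.81 against CD8 T cells, -0.08 against NK cells and -0.57 in the Trdc split, and Cd74 was -0.41 there. Where not given by construction, the cause was not tested. Of the main counts and shares, 118 values under alternatives stayed within the limits set and 22 moved. Of values for single genes and lists, 1809 stayed, 295 moved and 19 changed direction. At the 31 Was UMIs of the members, counting error alone spanned 54.0 to 112.9 CPM.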
